A study of Bos taurus with 30 samples.

Results

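The interferon tau genes were followed in the embryonic disc (ED) and the extra-embryonic membranes (EEM) of bovine conceptuses on day 15 of gestation. Members were all rows of the count table whose Entrez gene ID carries a cattle symbol that starts with IFNT or IFN-tau in the RefSeq annotation of ARS-UCD2.0. This rule found 4 of 35092 rows, namely IFNT3 (Entrez 100313956), IFNT2 (317698), IFN-tau-c1 (528513) and IFN-TAU (509166). The study asked how in vitro procedures alter the conceptus before implantation, and compared in vitro produced (IVP) with in vivo (IVV) embryos in each tissue. IVP embryos came from slaughterhouse Holstein oocytes that were matured, fertilized and cultured in vitro in serum-free medium, moved to recipient cows on day 7 and flushed on day 15. IVV embryos came from Holstein donors that were superovulated and inseminated with semen of the bull also used in vitro, and were flushed on the same day. The libraries numbered 7 from IVP and 9 from IVV embryos in the ED, and 6 from IVP and 8 from IVV embryos in the EEM. For 13 embryos, of which 5 were IVP and 8 IVV, libraries of both tissues exist. Each library comes from one embryo, but few cows carried each group and the labels do not say which embryos shared a dam, so that procedure and cow cannot be told apart and p-values measure the spread between embryos only. The labels give neither the length nor the sex of single embryos, and lengths were not used here.

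Interferon tau is the signal by which a ruminant conceptus announces itself to its mother. The trophectoderm, the outer cell layer of the elongating conceptus, secretes this type I interferon, which acts on the endometrium to stop the prostaglandin pulses that would otherwise end the life of the corpus luteum. Its genes are intronless copies that resemble one another closely and lie in a cluster with genes of other type I interferons. ETS2, AP-1 factors such as JUN, and the trophoblast factors CDX2, DLX3, GATA2 and GATA3 are known to drive their transcription, whereas POU5F1 and EOMES are known to restrain it. Secreted interferon binds the receptor made of IFNAR1 and IFNAR2, whose kinases JAK1 and TYK2 act through factors such as STAT2 and IRF9 on interferon-stimulated genes such as ISG15 and MX1.

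Libraries held 48713218 to 63037371 counts on genes, and the values are given as CPM, that is, counts scaled by the library total and by TMM factors, which correct for unequal composition of libraries. Marker genes bore out the labelled tissues in part. NANOG, a pluripotency factor of the epiblast, reached a mean of 18.1 ± 12.0 CPM (SD, n = 9) in IVV discs and 0.0561 ± 0.0787 CPM (n = 8) in their EEM. SOX2 and UTF1, also on the epiblast list, held 0 counts in every library. Of 7 epiblast markers tested between tissues of the same embryos, 6 were called as higher in the ED and CRIPTO as lower. NANOG and GDF3, among these 6, passed the filter only with the ED libraries, so their direction was set by the filter. CRIPTO averaged 45.4 ± 21.3 CPM in IVV discs (n = 9) and 66.4 ± 22.9 CPM in their EEM (n = 8). Its fitted difference between tissues was -0.65 on the log2 scale (adjusted p = 0.000273 by edgeR). The ED libraries were not free of trophoblast transcripts. The 21 trophoblast markers summed to 13869–78756 CPM in the ED of IVP embryos, 34966–52497 CPM in the ED of IVV embryos, 38735–87972 CPM in the EEM of IVP embryos and 37663–69671 CPM in the EEM of IVV embryos, and 0 of these markers lacked counts in any group. Between ED and EEM of the same embryos, 4 of the 21 were higher in the ED (of which TKDP2 passed the filter only with the ED libraries) and 4 lower, where 24.5% of all genes tested were called and 10.1% called as lower in the ED, with a median log2 difference of -0.20 against -0.09 over all genes tested. In such bulk samples fewer cells of a type and less RNA per cell cannot be told apart. Of the maternal markers, the blood and immune list summed to at most 20.4 CPM in any library and SERPINA14, a serpin secreted by the uterine glands, held at most 2 counts. The other uterine epithelium markers were not all low, and the list of 7 reached sums of up to 354 CPM in the EEM and 349 CPM in the ED of IVV embryos. Most of this was FXYD4, a regulator of the sodium pump, with group means of 114 to 158 CPM, and MUC1, an epithelial mucin, had group means of 6.67 to 15.2 CPM. The part of maternal cells in the results was not tested.

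All 4 members were transcribed in both tissues, and IFNT3 took most of the counts. In the naming annotation, among genes with a row in the count table, IFNT3, IFNT2 and IFN-tau-c1 stand next to each other with only the pseudogene LOC112447781 between them. IFN-TAU stands apart, with other interferon genes in between. IFNT3 held a median of 90.5% of the counts on the 4 members over all 30 libraries (range 85.0–96.5%), IFNT2 7.54% (2.67–13.1%), IFN-tau-c1 1.69% (0.497–2.95%) and IFN-TAU 0.0651% (0.0123–0.599%). These are shares of counts and not of transcript levels, since they were not divided by length. The lowest count of any member was 11, for IFN-TAU in the EEM of VE19. The library preparation kept no strand, and how reads that align to several copies were counted is not given in the sources used here, so the split of reads between these near-identical genes is uncertain. Together the 4 genes took between 0.0467% and 0.407% of the counts of a library.

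The share of interferon tau counts on IFNT2 differed several-fold between embryos, and was lower in the ED than in the EEM in 10 of 13 embryos (7 of 8 IVV) by a smaller margin. In the IVV embryos the order of the IFNT2 share from lowest to highest was the same in both tissues. VE19 had the lowest share, 2.67% of interferon tau counts in the ED (95% Wilson interval 2.55–2.79%) and 3.48% in the EEM (3.37–3.61%). VE4 had the highest, 12.3% in the ED (12.1–12.5%) and 12.8% in the EEM. Intervals cover counting error only. The plot of shares by embryo shows that embryos lay further apart than the tissues of an embryo. The shares of IFNT3 and IFN-tau-c1 were higher in the ED in 7 of 8 IVV embryos. Pearson's r between EEM and ED was 0.98 over the 8 IVV embryos (Spearman's rho 1, and 0.97 without the 2 embryos farthest from the median) and 0.88 over all 13 (rho 0.81, and 0.89 without 2). The points of one embryo share its genome and its dam. Among the 5 IVP embryos the tissues differed by a median of 2.83 percentage points, against 0.873 in the 8 IVV embryos, and in IVPF14 the ED share of 8.09% exceeded the EEM share of 5.24%. The IFN-tau-c1 share behaved likewise in IVV embryos (r = 0.96, rho 0.98, and 0.86 without 2) and less so over all 13 (r = 0.72, rho 0.65, and 0.48 without 2), and its lowest values, 0.77% and 0.497%, were again those of VE19. The IFN-TAU share had an r of 0.76 in IVV embryos (rho 0.67, and 0.69 without 2) and 0.14 over all 13 (rho 0.29, and -0.02 without 2).

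**Figure D1:**
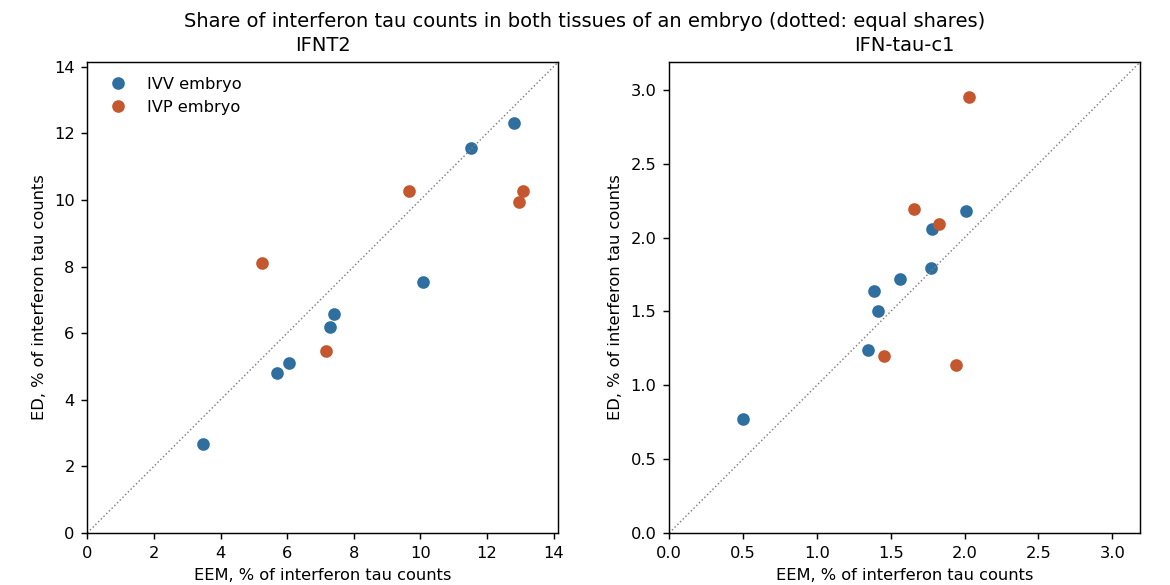
Percent of all counts on the 4 interferon tau genes that fell on IFNT2 (left) and IFN-tau-c1 (right), EEM on the horizontal and ED on the vertical axis, one point per embryo (8 IVV, 5 IVP) and a dotted line where both tissues are equal. For IFNT2 the IVV embryos rise together from 2.67% to 12.8%, with 7 of 8 below the line, and the IVP embryos differ from equal shares by a larger median (2.83 against 0.873 percentage points).

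IFNT3 was the most abundant member by counts in every group, and its highest levels were found in the EEM. In the ED of IVP embryos it ran from 390 CPM in IVPF10 through a median of 1250 to 2244 CPM in IVP10, with a mean of 1228 ± 641 CPM (SD, n = 7). In the ED of IVV embryos the lowest, median and highest values were 894, 1403 and 1784 CPM (mean 1341 ± 290.1, n = 9). The EEM of IVP embryos ran from 690 CPM in IVPF9 through 1524 to 4199 CPM in IVPF13 (mean 2001 ± 1482, n = 6), and that of IVV embryos from 1234 through 2184 to 3333 CPM (mean 2288 ± 865, n = 8). By group mean the order was EEM of IVV, EEM of IVP, ED of IVV and ED of IVP, and each neighbouring pair of means in this order differed by less than the SD of the more variable group of the pair. All 4 groups overlapped.

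The IVP embryos were more spread out than the IVV embryos for IFNT3. In the EEM, 3 of the 6 IVP libraries lay below the lowest IVV library, 2 above the highest and 1 between them. In the ED, 3 of the 7 IVP libraries lay below the IVV range and 1 above it. The SD of log2 CPM was 1.13 in IVP against 0.58 in IVV embryos in the EEM and 0.86 against 0.33 in the ED. This difference in spread was not tested. The trophoblast markers also ranged more widely in IVP embryos in both tissues, and IVPF10, lowest in IFNT3 among all ED libraries, was also lowest in their sum, at 13869 CPM.

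IFNT2 and IFN-tau-c1 followed the same order of tissues at lower counts. IFNT2 averaged 246 ± 263 CPM (n = 6) in the EEM of IVP embryos and 207 ± 122 CPM (n = 8) in that of IVV embryos. In the ED it averaged 120.0 ± 74.3 CPM (n = 7) in IVP and 112 ± 68.2 CPM (n = 9) in IVV embryos. Its spread among the EEM libraries of IVP embryos was the widest seen for a member in any group, from 27.1 CPM in IVPF9 to 638 CPM in IVPF13, or 23.5-fold. IFN-tau-c1 averaged 39.2 ± 30.1 CPM in the EEM of IVP embryos, 38.7 ± 21.3 CPM in the EEM of IVV embryos, 26.2 ± 14.2 CPM in IVP discs and 24.2 ± 9.63 CPM in IVV discs. IFN-TAU was ordered differently, with higher means in the ED. It averaged 1.91 ± 1.25 CPM in the ED of IVP embryos, 1.21 ± 0.444 CPM in the ED of IVV embryos, 0.994 ± 0.502 CPM in the EEM of IVV embryos and 0.984 ± 0.483 CPM in the EEM of IVP embryos. For these 3 genes too, the groups overlapped and neighbouring means differed by less than the larger SD.

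**Figure D2:**
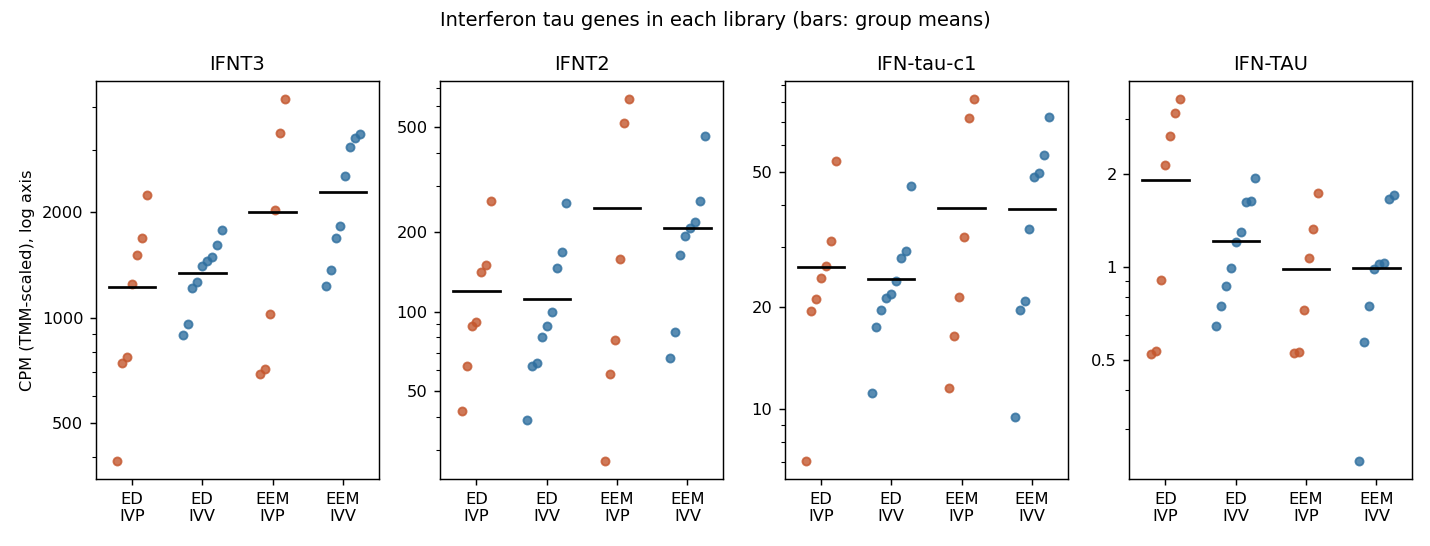
CPM of each interferon tau gene on a log axis in the ED and EEM of IVP and IVV embryos (7, 9, 6 and 8 libraries), one point per library with a bar at the group mean. IFNT3 spans 690 to 4199 CPM in the EEM of IVP embryos and 1234 to 3333 CPM in that of IVV embryos, and all groups overlap.

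No member differed between IVP and IVV embryos in either tissue past the threshold. In the EEM, 0 of the 4 members had an adjusted p under 0.05 by edgeR's quasi-likelihood test with 1 surrogate variable, against 3.32% of the 14718 genes tested. None of the 4 reached an unadjusted p of 0.05 either, and DESeq2 and limma voom also called 0. IFNT3 differed by -0.14 on the log2 scale (IVP minus IVV, SE 0.38, 95% interval -0.92 to 0.65, adjusted p = 0.977). The interval thus reaches from 0.529-fold to 1.57-fold, so that a moderate difference in either direction was not detectable with these embryos. IFNT2 differed by 0.24 (interval -0.88 to 1.36), IFN-tau-c1 by 0.00 (-0.90 to 0.91) and IFN-TAU by -0.04 (-0.88 to 0.80), with adjusted p between 0.968 and 0.999 by edgeR. The sign of all 4 differences changed under at least 1 alternative, and with XIST, the RNA of X inactivation, as a covariate that of IFNT2 was 1.10 (adjusted p = 0.882 by edgeR).

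In the ED, likewise 0 of the 4 members were called by edgeR, DESeq2 or limma voom, and none reached an unadjusted p of 0.05, against 5.93% of the 15733 genes tested that edgeR called. IFNT3 differed by -0.10 (SE 0.27, interval -0.65 to 0.46, adjusted p = 0.919), or 0.636-fold to 1.38-fold. IFNT2 differed by 0.08 (-0.67 to 0.83) and IFN-tau-c1 by 0.09 (-0.54 to 0.72), and with XIST as a covariate IFNT2 differed by 0.88 (adjusted p = 0.463 by edgeR). The sign of each of these differences, IFNT3 included, changed under at least 1 alternative. IFN-TAU had the largest difference of the 4, 0.56 higher in IVP embryos (interval -0.26 to 1.38, adjusted p = 0.525), and 4 of the 7 IVP libraries lay above every IVV library while 2 lay below all of them. A two-sided exact permutation test of the mean log2(CPM + 1) of each member in each tissue, which needs no model, gave raw p between 0.259 and 0.998 and an adjusted p of 0.998 for each of the 8 tests.

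Sample titles end in the letter A or C, whose meaning is not given, and IFNT3 was also compared within each letter. In the EEM the mean log2 CPM of IVP minus IVV was -0.14 within A (3 against 2 libraries) and -0.48 within C (3 against 6). In the ED it was 0.15 within A (2 against 2) and -0.47 within C (5 against 7). IFNT2 was higher in IVP embryos within A, by 0.43 in the EEM and 1.57 in the ED, and differed by -0.34 and -0.39 within C. IFN-tau-c1 differed by 0.96 within A and -0.36 within C in the EEM and by 0.79 and -0.25 in the ED, and IFN-TAU by 0.82 and -0.23 in the EEM and 1.10 and 0.08 in the ED. The sign thus turned between the letters for IFNT2 and IFN-tau-c1 in both tissues, for IFNT3 in the ED and for IFN-TAU in the EEM, and these differences between letters were not tested.

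IFNT3, IFNT2 and IFN-tau-c1 were lower in the ED than in the EEM of the same embryo. Over the 13 embryos with both tissues, and with embryo as a block, 3 of the 4 members were called by edgeR, all of them lower in the ED, where 24.5% of the 16784 genes tested were called and 10.1% were called as lower in the ED. IFNT3 differed by -0.60 on the log2 scale (ED minus EEM, SE 0.17, interval -0.95 to -0.25, adjusted p = 0.0123), or 0.658-fold. It was lower in the ED of 10 of 13 embryos. IFNT2 stood at 0.574-fold (log2 -0.80, SE 0.22, adjusted p = 0.0101), lower in 10 of 13, and IFN-tau-c1 at 0.704-fold (log2 -0.51, SE 0.16, adjusted p = 0.0289), lower in 10 of 13. IFN-TAU differed in the other direction, by 0.51 (SE 0.22, interval 0.04 to 0.97), and did not pass (adjusted p = 0.102), although it was higher in the ED of 9 of 13 embryos. The IFNT3 call did not hold with DESeq2 (log2 -0.57, adjusted p = 0.121). That of IFN-tau-c1 was lost when any one of IVP14, IVPF13, VE26, VE28, VE29, VE4 or VE5 was left out, with a highest adjusted p of 0.0852 without VE28.

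**Figure D3:**
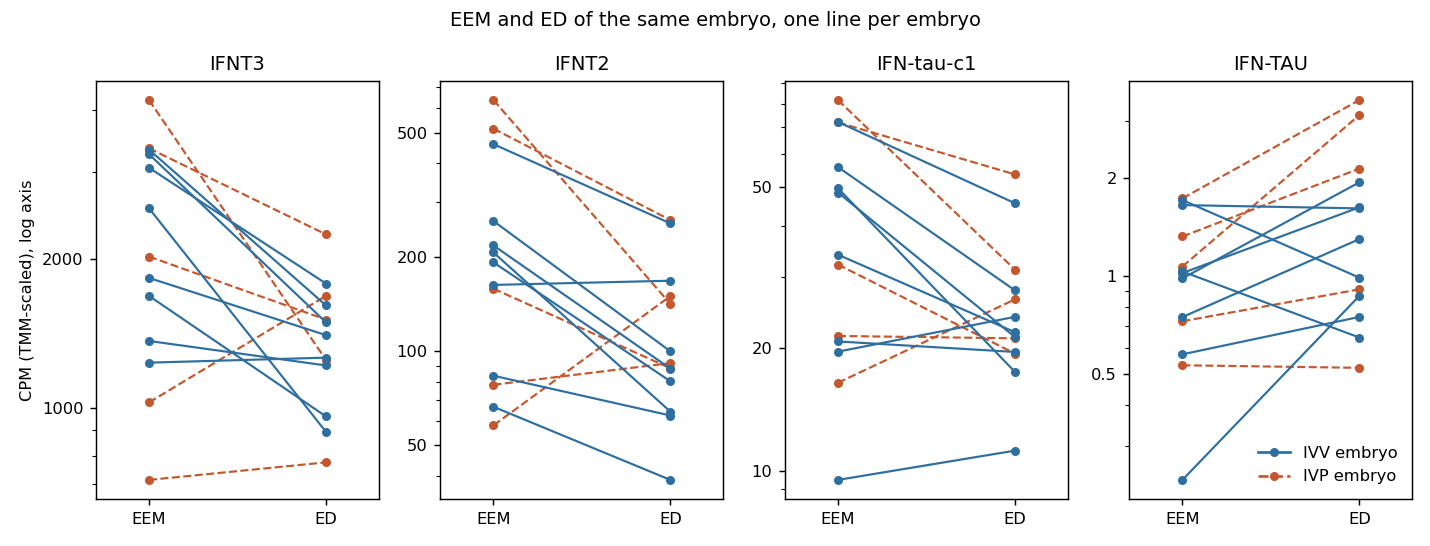
CPM on a log axis in the EEM and the ED of the same embryo, one line per embryo (blue, 8 IVV; orange and dashed, 5 IVP). Lines fall from EEM to ED in 10 of 13 embryos for IFNT3, IFNT2 and IFN-tau-c1, and rise in 9 of 13 for IFN-TAU.

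The 8 IVV embryos by themselves showed the lower IFNT3 and IFNT2 in the ED. IFNT3 was lower in 7 of them. The exception was VE24, with 1263 CPM in its ED against 1234 CPM in its EEM. The largest ratio was that of VE5, with 894 against 2535 CPM. By edgeR, 2 of the 4 members were called, against 21.3% of the 15138 genes tested and 5.96% called as lower in the ED. IFNT3 differed by -0.65 (SE 0.15, adjusted p = 0.00725) and IFNT2 by -0.89 (SE 0.16, adjusted p = 0.00106). IFN-tau-c1, at -0.50 (adjusted p = 0.066), and IFN-TAU, at 0.45 (adjusted p = 0.300), did not pass.

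The 5 IVP embryos were split. IFNT3 stood at 2244 CPM in the ED against 3352 CPM in the EEM of IVP10, at 1508 against 2024 CPM in IVP14, and at 1250 against 4199 CPM in IVPF13. It was higher in the ED of the remaining embryos, IVP11 with 775 against 714 CPM and IVPF14 with 1684 against 1025 CPM. The ED was thus lower in 3 and higher in 2. By edgeR 0 of 4 members passed in these embryos, against 3.28% of the 14863 genes tested, while DESeq2 and limma voom also called 0 and IFN-TAU alone had an unadjusted p under 0.05 (0.0414). The fitted difference of IFNT3 was -0.36 (interval -1.05 to 0.33, adjusted p = 0.797), and -0.03 without IVPF13. That of IFNT2 was -0.47 (-1.38 to 0.44), of IFN-tau-c1 -0.36 (-0.95 to 0.23) and of IFN-TAU 0.75 (0.03 to 1.46, adjusted p = 0.421). Leaving out single embryos gave ranges of -0.91 to -0.058 for IFNT2, -0.65 to -0.12 for IFN-tau-c1 and 0.54 to 0.88 for IFN-TAU.

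Whether the tissue difference itself differed between procedures was tested as an interaction in the 26 libraries of these embryos. No member passed in edgeR, DESeq2 or limma voom, where edgeR called 1.02% of the 16784 genes tested, and the lowest unadjusted p of the 4 by edgeR was 0.345. The ED against EEM difference of IFNT3 was 0.31 higher in IVP than in IVV embryos (interval -0.41 to 1.02, adjusted p = 0.889), that of IFNT2 0.43 (-0.49 to 1.34), that of IFN-tau-c1 0.15 (-0.56 to 0.86) and that of IFN-TAU 0.32 (-0.62 to 1.26). A tissue difference that passed in IVV but not in IVP embryos was therefore not shown to differ between them.

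**Figure D4:**
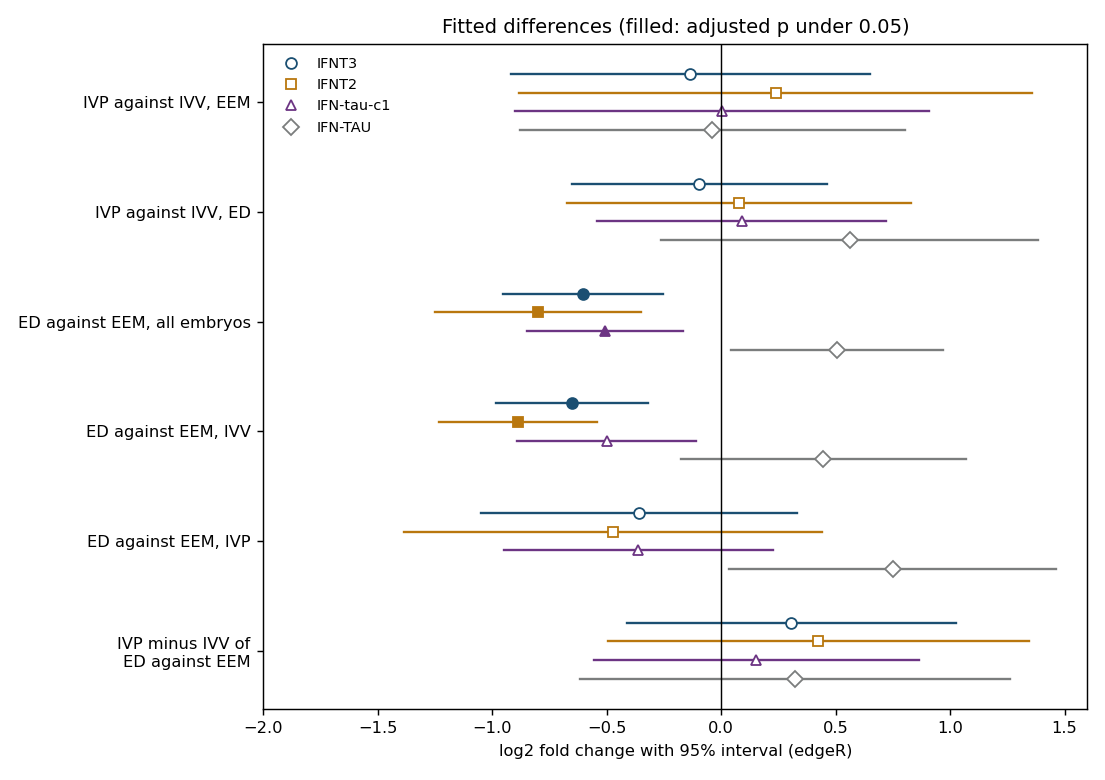
Fitted log2 fold changes with 95% intervals for the 4 interferon tau genes in each comparison (edgeR), with filled symbols for an adjusted p under 0.05. The lower level in the ED is filled for IFNT3, IFNT2 and IFN-tau-c1 over all 13 embryos and for IFNT3 and IFNT2 in IVV embryos, and each interval for IVP against IVV spans 0.

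In the EEM the levels of IFNT3, IFNT2 and IFN-tau-c1 rose and fell with those of trophoblast markers across embryos. Over the 14 EEM libraries the log2 of the summed member CPM correlated with the mean log2 CPM of 17 trophoblast markers (regulators of the interferon tau genes left out) with r = 0.83 (rho 0.89, and 0.91 without the 2 libraries farthest from the median marker level). In the 16 ED libraries r was 0.68 (rho 0.46) and fell to 0.13 without 2 libraries, so that it rested on those. IFN-tau-c1 tracked the markers most closely, with r = 0.95 in the EEM and 0.93 in the ED (rho 0.91 and 0.90, and 0.91 and 0.83 without 2). IFN-TAU did so least, with 0.62 in the EEM, which fell to 0.31 without 2 libraries, and -0.02 in the ED. All values of a library share its depth and composition, and the summed member CPM was lower in libraries with more counts (r = -0.29 and rho -0.48 in the EEM, -0.59 and -0.56 in the ED). Of the single markers, 0 of the 20 tested differed between IVP and IVV embryos in the EEM (list median 0.08 against 0.01 over all genes), where 3.32% of all genes tested were called. Among the 21 tested in the ED, TKDP4, a trophoblast Kunitz domain protein, alone was called and was lower in IVP embryos (log2 -1.40, adjusted p = 0.0365 by edgeR). The list median there was 0.24 against -0.01, and 5.93% of all genes tested were called. Between tissues the lower markers of the ED included KRT18 (log2 -0.47), a keratin, and TFAP2C (-0.36), a trophoblast transcription factor, and the higher ones TKDP4 (2.32) and PAG12 (1.72), a pregnancy-associated glycoprotein. With the marker mean as a covariate, 0 of the 4 members were called between IVP and IVV embryos in either tissue.

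**Figure D5:**
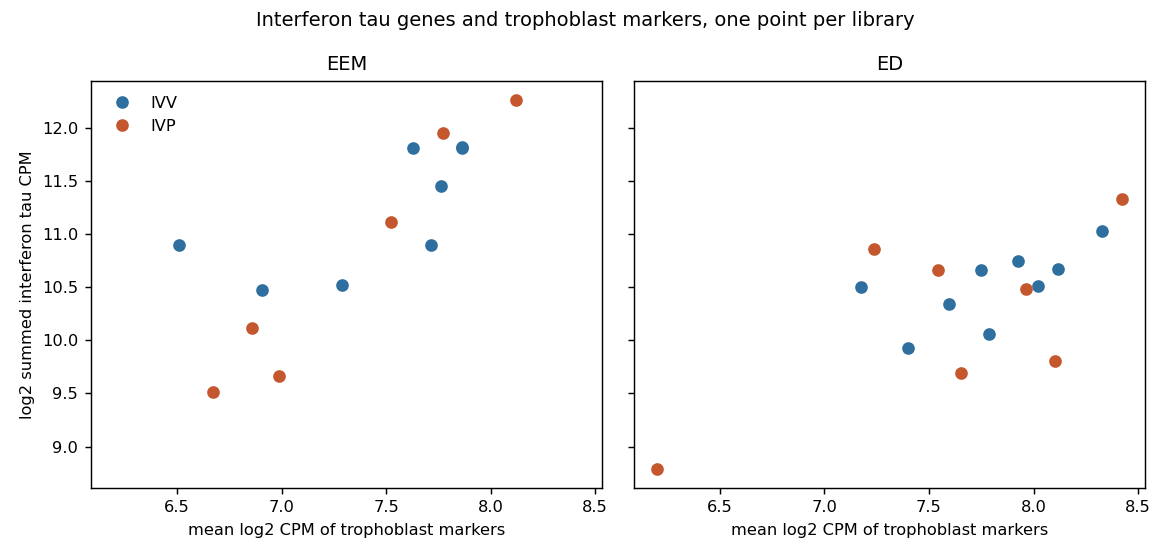
Log2 of the summed CPM of the 4 interferon tau genes against the mean log2 CPM of 17 trophoblast markers, one point per library, in the EEM (left, 14 libraries) and the ED (right, 16 libraries). In the EEM the points rise together (r = 0.83), and in the ED the lowest library, IVPF10, lies far from the rest.

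Among themselves, IFNT3, IFNT2 and IFN-tau-c1 moved together in the EEM, and in the ED IFNT2 and IFN-tau-c1 did so most closely. In the EEM (14 libraries) r of log2 CPM was 0.88 between IFNT3 and IFNT2, 0.92 between IFNT2 and IFN-tau-c1 and 0.41 between IFNT3 and IFN-TAU. In the ED (16 libraries) these values were 0.66, 0.86 and 0.20. Spearman's rho was 0.90, 0.92 and 0.56 in the EEM and 0.67, 0.77 and 0.32 in the ED. Without the 2 libraries farthest from the median, r was 0.84, 0.90 and 0.22 in the EEM and 0.54, 0.77 and 0.56 in the ED. IFNT3 and IFN-tau-c1 had an r of 0.85 in the EEM (rho 0.84, and 0.81 without 2) and 0.66 in the ED (rho 0.39, and 0.43 without 2), and IFN-tau-c1 and IFN-TAU 0.69 in the EEM (rho 0.70, and 0.44 without 2) and 0.14 in the ED (rho 0.18, and 0.28 without 2). What reads shared between copies add to these values was not tested. The named genes most like the summed members in the EEM were PAG11 (r = 0.94), SPSB4 (0.89), B3GAT1 (0.89), TKDP1 (0.87) and ENTPD3 (0.86), out of 14714 genes compared. PAG11, a pregnancy-associated glycoprotein, and TKDP1, a trophoblast Kunitz domain protein, are secreted products of the ruminant trophoblast from multigene families, so their reads may be shared with other copies as well. In the ED the named genes were ZBTB8B, RSU1 and CHRNE (each 0.90) and PPM1K (0.87), out of 15729. RSU1 and CHRNE had r of only 0.06 and 0.01 in the EEM. One unnamed gene, LOC112445660, singled out after its values were seen, ranked above all of them in both tissues (r = 0.96 in the EEM and 0.94 in the ED). The annotation gives it as protein-coding on no placed chromosome, and its median was 1342 CPM in the EEM and 1088 CPM in the ED.

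Of the factors known to regulate these genes, JUN differed between procedures in the EEM, and EOMES and POU5F1 in the ED. In the EEM 9 of the 10 listed regulators were tested between IVP and IVV embryos, 0 were higher and JUN alone was lower in IVP embryos (187 ± 160 CPM, n = 6, against 872 ± 588 CPM, n = 8, log2 -2.05, SE 0.46, adjusted p = 0.0135 by edgeR), where 3.32% of all genes tested were called. The median difference of the list was -0.04, against 0.01 over all genes tested. In the ED EOMES and POU5F1 were lower in IVP embryos among the 10 tested, and 0 were higher, where 5.93% of all genes tested were called, with a list median of -0.09 against -0.01. EOMES averaged 5.88 ± 2.60 CPM in IVP (n = 7) and 21.1 ± 15.8 CPM in IVV embryos (n = 9), and POU5F1 29.2 ± 9.00 against 94.96 ± 63.2 CPM. EOMES is also a marker of the primitive streak and mesoderm, and 6 of the 9 markers on that list were lower in IVP discs and 0 higher (list median -1.91, and 5.93% of all genes tested called). Of these 6, MESP2 and TBXT had a lowest value of 0 CPM among IVP discs. Both passed the filter only with the IVV libraries, so their direction was set by the filter. The others were MIXL1, MESP1, TBX6 and EOMES. Those with the lowest p were MESP2 (0.205 ± 0.153 against 4.303 ± 2.08 CPM) and MIXL1 (log2 -2.20, adjusted p = 0.000762 by edgeR), both transcription factors of the forming mesoderm. The part of these disc cells in the lower EOMES and POU5F1 was not tested. Between tissues, ETS2 (log2 -0.43, SE 0.09, adjusted p = 0.00143 by edgeR) and JUN (log2 -0.86, adjusted p = 0.0158) were lower in the ED, and POU5F1 (log2 5.38) was higher. EOMES was also called as higher, but held 4 counts or fewer in every EEM library. It passed the filter only with the ED libraries, so its direction was set by the filter. The 6 others, CDX2, GATA3, GATA2, DLX3, EP300 and CREBBP, did not pass, and the list median was -0.22 against -0.09. Across libraries, GATA3 had the highest correlation with the summed members among the 10, with r = 0.67 in the EEM (rho 0.70, and 0.50 without 2 libraries) and 0.74 in the ED (rho 0.56, and 0.57 without 2), while that of ETS2 was 0.00 and -0.39.

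Interferon-stimulated genes had low levels as a list, although single genes were well detected. For IVP against IVV, 7 passed the filter on low counts in the EEM and 9 in the ED, and the summed level of all 23 listed genes lay between 6.50 and 29.0 CPM in every library. ISG15, a ubiquitin-like protein, averaged 0.101 ± 0.100 CPM in the EEM of IVV embryos (n = 8), and MX1, an antiviral GTPase, 0.279 ± 0.197 CPM. By contrast IFIT5, an RNA-binding antiviral protein, averaged 2.04 ± 0.970 CPM in that group, with up to 173 counts in a library, and RIGI, a sensor of viral RNA, 2.69 ± 0.432 CPM, with up to 184 counts. In the EEM 0 of the 7 tested differed between IVP and IVV embryos by edgeR (median 0.62 against 0.01 over all genes tested, of which 3.32% were called). In the ED 1 of the 9 was lower in IVP embryos, DTX3L (log2 -1.67, adjusted p = 0.0222), and 1 higher, CMPK2 (log2 1.09, adjusted p = 0.0449), with a median of -0.53 against -0.01, where 5.93% of all genes tested were called. DTX3L, with a lowest value of 0.181 CPM among IVP discs, passed the filter only with the IVV libraries, so its direction was set by the filter. Between tissues 11 were tested, but DTX3L, IFIT2, MX2 and IFI27 did not pass the filter within the EEM, so that calls of these genes as higher in the ED (all but IFI27) say nothing of the list. Of the 7 that also passed within the EEM, PARP14 and IFIT5 were called as higher in the ED and 0 as lower, where 24.5% of all genes tested were called in either direction. IFIT2, a translation inhibitor, averaged 0.695 ± 0.7101 CPM in the ED of IVV embryos (n = 9) and held at most 2 counts in any EEM library. PARP14, an ADP-ribosyltransferase, stood at 3.51 ± 1.38 CPM in the ED and 0.445 ± 0.260 CPM in the EEM of IVV embryos (log2 2.80 over all 13 embryos, SE 0.33).

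The receptor side was transcribed unevenly. IFNAR1, a receptor chain, averaged 5.59 ± 2.59 CPM in the EEM of IVV embryos (n = 8) and 7.92 ± 1.53 CPM in that of IVP embryos (n = 6), whereas IFNAR2, its partner chain, held at most 5 counts in any library. Of the 9 receptor and signalling genes tested in each comparison, IRF9, a DNA-binding partner of STAT2, was the only one called between IVP and IVV embryos. It was higher in the EEM of IVP embryos, at 4.48 ± 1.49 against 2.15 ± 1.03 CPM (log2 1.26, SE 0.29, adjusted p = 0.0154 by edgeR), and in the ED it did not pass (log2 1.02, adjusted p = 0.0534). The list medians were 0.15 against 0.01 in the EEM and 0.20 against -0.01 in the ED, where 3.32% and 5.93% of all genes tested were called. Between the tissues of the same embryos 0 of these 9 were called, against 24.5% of all genes tested.

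Other type I interferon genes with a symbol of their own were close to silent. The 12 genes that carry the symbol of another type I interferon held at most 2 counts in any library and 14 counts in all libraries together, and 0 of them passed the filter. Of 70 genes with a row in the interferon cluster between MTAP and FOCAD, the 4 members held 99.1% of the counts. Leaving out KLHL9 and HACD4, which are not interferon genes, 13 other protein-coding genes or pseudogenes of the cluster had over 10 counts in some library, all of them without a name beyond a LOC number. The highest count among them was 231, of LOC101908039. Over all libraries this gene held 2927 counts, the pseudogene LOC112447781 2194 and LOC616977 1777, against 2109 on IFN-TAU. The counts of IFN-TAU were thus no higher than those of some unnamed genes of the cluster.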

How the data were processed

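RNA of 30 libraries (poly(A) selected, strand not kept, paired reads) was measured from 17 embryos. The authors trimmed reads, aligned them with STAR 2.7.0b to ARS-UCD1.3 and counted them on genes with featureCounts (Subread 2.0.3), and deposited raw counts for 35092 Entrez IDs. The submitters' processing notes also name FastQC 0.11.9 and Trimmomatic. Whether reads on several loci were counted is not given in the sources used here. Among the low entries of the table, a count of 2 (19289 entries) was more frequent than a count of 1 (15257), so that both mates of a pair may have been counted, and halved counts were tried as an alternative. Symbols came from the RefSeq table of ARS-UCD2.0, a later build than that of the files, and matched 31630 IDs, and the part of the member rule that reads gene descriptions could not be used because the table has none. No interferon tau sequence or coordinate is given here.

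From the deposited counts, CPM (TMM factors 0.802 to 1.22) were computed and each comparison was fitted over all genes that passed filterByExpr (minimum count 10) with edgeR 4.0.16 in R 4.3.3, by its quasi-likelihood test, p-values adjusted by Benjamini-Hochberg, and a threshold of 0.05. IVP and IVV embryos were compared within each tissue with 1 surrogate variable from svaseq (sva 3.50.0). Tissues were compared with embryo as a block, a pairing given by the embryo names in the titles. In 12 of 13 embryos the deviations of both tissues from their group means correlated above 0.1 (lowest -0.19, median 0.39). No 2 libraries of a group were alike within sampling noise (lowest chi-square per degree of freedom 65.8). Single members were also compared by the exact permutation test on log2(CPM + 1). DESeq2 1.42.0, limma 3.58.1 (voom), other scalings, filters and covariates, and leaving out each embryo were the alternatives. Correlations used log2 CPM with a prior count of 2.

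The members and the gene lists (regulators, receptor and signalling genes, interferon-stimulated genes, markers of trophoblast, epiblast, hypoblast, primitive streak, maternal blood and uterus) were chosen with earlier results of these data known. Named were all members, for each list the 2 genes past the threshold with the lowest p in each direction (between procedures in each tissue, and between tissues over 13 embryos), and the 5 genes with a symbol most like the summed members in each tissue, of which 1 in the ED is not reported here. Between tissues, NANOG, GDF3, EOMES, GSC, TBXT, TF, SERPINA1 and OXTR were called as higher in the ED but passed the filter only with its libraries, so their direction was set by the filter. Of the markers that also passed within the EEM, 4 of 5 epiblast markers were higher in the ED and CRIPTO was lower, 5 of 6 streak markers were higher, 4 of 9 hypoblast markers were higher (APOA2 with the lowest p) and APOA1 lower, with TTR called as lower but passing the filter only with the EEM libraries, FXYD4 was lower among 4 uterine markers, and 0 of 2 blood markers passed, where 24.5% of all genes tested were called. Between procedures in the EEM, TTR was called as lower in IVP embryos but held at most 1 count in their libraries and passed the filter only through the IVV libraries. None of the other hypoblast markers passed, and 0 of 5 epiblast, 0 of 6 streak, 0 of 2 blood and 0 of 4 uterine markers passed, where 3.32% of all genes tested were called. In the ED POU5F1 was lower in IVP embryos among 7 epiblast markers, and 6 of 9 streak markers were lower, of which MESP2 and TBXT passed the filter only with the IVV libraries. MUC1 was higher among 6 uterine markers, and 0 of 10 hypoblast and 0 of 2 blood markers passed, where 5.93% of all genes tested were called.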

Additional observations from a re-analysis of the deposited data

Results flagged for a closer look

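Among 36 groups of 4 to 10 libraries examined for a library far from its neighbours, 2 values stood out, where chance gives about 1 in 20. In the ED of the IVP embryo IVPF10, IFN-TAU held 0.599% of interferon tau counts (165 counts, 95% Wilson interval 0.514–0.697%), and the next highest value of that group was 0.219%. The same library had the lowest IFNT3 (390 CPM) and IFN-tau-c1 (7.04 CPM) and the lowest summed trophoblast markers (13869 CPM) among the ED libraries, while its IFN-TAU level of 2.65 CPM lay within the range of its group. In the EEM of the IVV embryo VE19, IFN-tau-c1 held 0.497% of interferon tau counts (444 counts, interval 0.453–0.546%), and the next lowest value was 1.34%. The ED of VE19 had the lowest IFN-tau-c1 share among all ED libraries, 0.770%, followed by 1.14% in IVPF14, a gap that did not stand out by the same measure.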

How the results depend on the processing

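Over all alternatives run, 0 of 4 members passed for IVP against IVV embryos in either tissue, for the tissues of IVP embryos and for the interaction. Over the 14 alternatives other than leaving out an embryo, the EEM difference ranged from -0.42 to 0.19 for IFNT3, -0.40 to 1.10 for IFNT2, -0.15 to 0.38 for IFN-tau-c1 and -0.048 to 0.12 for IFN-TAU, and the ED difference from -0.47 to 0.22, -0.26 to 0.88, -0.32 to 0.51 and 0.28 to 0.73. The small EEM differences turned sign often. With 2 surrogate variables they were -0.10 for IFNT2, -0.11 for IFN-tau-c1 and 0.044 for IFN-TAU. With XIST as a covariate they were 0.19 for IFNT3 and 0.047 for IFN-TAU. With the title letter they were 0.053 for IFNT3 and 0.10 for IFN-TAU, and with the trophoblast mean -0.12 for IFNT2 and 0.12 for IFN-TAU. In embryos with both tissues IFNT3 was 0.025 and IFN-TAU 0.10. By limma voom IFNT2 was -0.40 and IFN-tau-c1 -0.15. IFN-tau-c1 was -0.0021 without a filter. Leaving out embryos whose titles begin with IVPF, or the other IVP embryos, was added after seeing the data, and made IFN-tau-c1 -0.023 and -0.0034 in the EEM. In the ED, IFNT3 was 0.22 with XIST, 0.16 in embryos with both tissues and 0.14 without IVPF embryos, and without the other IVP embryos IFNT2 was -0.26 and IFN-tau-c1 -0.32. Without the block, the interaction of IFNT2 was -0.063. As single values, IFN-TAU in the EEM was 0.030 with a pseudocount of 0.1 and 0.0027 by library total, and by library total IFNT2 and IFN-tau-c1 in the ED were -0.056 and -0.14.

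Leaving out each embryo gave EEM ranges of -0.51 to 0.082 (IFNT3), -0.40 to 0.53 (IFNT2), -0.40 to 0.22 (IFN-tau-c1) and -0.26 to 0.22 (IFN-TAU). The ED ranges, in the same order, were -0.33 to 0.035, -0.26 to 0.33, -0.21 to 0.26 and 0.32 to 0.79. Those of the interaction were 0.086 to 0.63, 0.035 to 0.84, -0.066 to 0.40 and 0.11 to 0.54. For ED against EEM, IFNT3 (-0.72 to -0.51) and IFNT2 (-0.97 to -0.69) passed without each of the 13 embryos, and IFN-tau-c1 (-0.60 to -0.42) without 6 of 13. In IVV embryos IFN-tau-c1 ranged from -0.62 to -0.39 and passed without VE19 or VE24, and IFN-TAU ranged from 0.27 to 0.61 and never passed.

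The block mattered for the tissue comparison. With no replicate block, IFN-tau-c1 (-0.67, adjusted p = 0.116) did not pass over 13 embryos, nor IFNT3 (-0.72, adjusted p = 0.0541) and IFNT2 (-0.89, adjusted p = 0.154) in IVV embryos, and calls over all genes fell from 4104 to 2127 and from 3222 to 1802. DESeq2 lost IFNT3 over 13 embryos (-0.57, adjusted p = 0.121). IFN-tau-c1 in IVV embryos passed by DESeq2 (-0.54, adjusted p = 0.0184), limma voom (-0.54, 0.0385), RLE scaling (-0.54, 0.0452) and without a filter (-0.51, 0.0473). Counts of calls over all genes changed most in the EEM (488 by edgeR, 133 with XIST, 769 by DESeq2, 958 without a filter, 192 without IVPF and 81 without the other IVP embryos) and the ED (933, against 1479 by DESeq2, 1646 without a filter, 175 and 388). In IVP embryos the 488 calls became 748 by DESeq2 and 784 without a filter, and the 172 interaction calls 435, 356 and, by limma voom, 329. The causes were not tested. The number of IVP embryos, and dams not named in the labels, limit what the comparisons of procedures can show.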
